A study of Caenorhabditis elegans with 2 samples.

Results

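Regions of the C. elegans X chromosome with ZTF-4 ChIP-seq enrichment just upstream of protein-coding genes were described here. They were taken from the candidate list called on both replicates together (the pooled list, 30000 regions, ce11 build), which holds weak regions along with peaks. A region was included when it lay on X, its summit (the base of strongest enrichment) was 0 to 500 bp upstream of a protein-coding gene's annotated start (its 5' end), and the summit was over 500 bp from the 5' end of every tRNA gene. These conditions gave 611 of the 5846 pooled regions on X, called upstream X regions from here on. The tRNA condition removed 13 regions that were also upstream of a coding gene, 2 of which were in the final peak list.

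The material was 1 group of 2 biological replicates of whole L3 larvae, the third larval stage, of both sexes. The strain, OP322, carries the unc-119(ed3) III mutation and the integrated transgene wgIs322, from which ZTF-4 is made as a fusion to eGFP. Whole animals were used, so the cells in which a region was bound cannot be told apart, and the control was not analysed here. Replicate 1 had 29249 candidate regions and replicate 2 had 30000, and the read depth behind them is unknown. The final peak list had been thresholded by IDR (irreproducible discovery rate, a score of how well replicates rank the same regions). It held exactly the strongest 2.35% of the pooled list, so an IDR peak is a pooled region with a signal of at least 35.9. The leading set of a replicate, below, means as many of its strongest regions as there are IDR peaks. Signal is the authors' own enrichment value for a region. It is used here to rank and describe regions within a list, and across lists only in a correlation of the replicates.

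ZTF-4 is named for its zinc finger domain, a small fold held by zinc that in many proteins contacts DNA. The DNA just upstream of a gene usually holds its promoter, where transcription factors bind and RNA polymerase starts. In C. elegans many transcripts have their first bases replaced by a spliced leader, so transcription may begin some way before the annotated start. Hermaphrodites carry a pair of X chromosomes and males a single one, and dosage compensation lowers X expression in hermaphrodites.

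The DNA under the 6 strongest upstream X regions is shown first, because later counts of short words refer to it. Each line holds 101 bases of the ce11 sequence centred on the summit, 5' to 3' on the strand of the gene. The windows lay at chrX:5841247-5841347 (plus strand) for puf-9, chrX:15841222-15841322 (plus strand) for serp-1.1, chrX:15607680-15607780 (plus strand) for nipi-3, chrX:2242946-2243046 (minus strand) for rpl-11.2, chrX:6207842-6207942 (minus strand) for T13C5.6 and chrX:14818926-14819026 (minus strand) for epn-1. Capitals mark GACGC on either strand, a word picked after values had been seen.
puf-9: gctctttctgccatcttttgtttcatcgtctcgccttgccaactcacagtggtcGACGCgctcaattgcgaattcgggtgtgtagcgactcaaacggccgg
serp-1.1: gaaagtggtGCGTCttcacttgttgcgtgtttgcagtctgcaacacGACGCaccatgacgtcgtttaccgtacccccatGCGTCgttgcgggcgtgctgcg
nipi-3: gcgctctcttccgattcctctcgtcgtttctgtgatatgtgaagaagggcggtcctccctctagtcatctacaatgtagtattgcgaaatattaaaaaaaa
rpl-11.2: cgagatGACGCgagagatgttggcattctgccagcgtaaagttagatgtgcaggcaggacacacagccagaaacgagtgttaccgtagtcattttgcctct
T13C5.6: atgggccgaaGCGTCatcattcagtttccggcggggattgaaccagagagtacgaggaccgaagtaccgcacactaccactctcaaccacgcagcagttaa
epn-1: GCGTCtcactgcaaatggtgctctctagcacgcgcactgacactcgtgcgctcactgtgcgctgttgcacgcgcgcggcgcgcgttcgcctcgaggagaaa
GACGC or its reverse complement was present in 5 of the 6 windows, and that of serp-1.1 held 3 copies. The window of nipi-3 held none.

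The strongest upstream X region lay 295 bp upstream of puf-9, which encodes a Pumilio-family RNA-binding protein that acts in larval developmental timing. It spanned 5841222 to 5841415 on X. Its signal was 118 in the pooled list, 34.9 in the replicate 1 list and 84.4 in the replicate 2 list, at ranks 36, 43 and 39. It was thus among the leading regions of both replicates. The summit fell in an annotated non-coding gene, with the 5' ends of the non-coding genes W06B11.7 and W06B11.9 at 53 and 112 bp.

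The second lay 300 bp upstream of serp-1.1, which encodes a stress-associated endoplasmic reticulum protein. It spanned 15841087 to 15841456 in intergenic DNA, with a pooled signal of 95.6 (rank 54), a replicate 1 signal of 39.955 (rank 29) and a replicate 2 signal of 56.5 (rank 92). The third, at 15607545 to 15607914, lay 239 bp upstream of nipi-3, a Tribbles-family pseudokinase gene of the epidermal immune response. Its signals were 76.9 pooled, 23.4 in replicate 1 and 53.4 in replicate 2, at ranks 97, 170 and 105. All of these 3 regions ranked within the first 200 of each list.

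The next 3 were more uneven between replicates. The region upstream of rpl-11.2, a large-subunit ribosomal protein gene, spanned 2242811 to 2243180 with its summit 378 bp upstream. Its signals were 72.2 pooled, 32.4 in replicate 1 and 37.2 in replicate 2, at ranks 108, 58 and 272. The region of T13C5.6, a gene for a protein with a phosphatidic acid phosphatase domain, spanned 6207707 to 6208076 with its summit 205 bp upstream. Its signals were 65.0, 27.9 and 37.9, in the same order, at ranks 130, 98 and 256. The region of epn-1, an epsin gene of endocytosis, spanned 14818791 to 14819160 with its summit 462 bp upstream, the farthest of the IDR peaks described here. Its signals were 61.4, 13.6 and 52.9 at ranks 152, 741 and 108, so it was in the leading set of replicate 2 and just outside that of replicate 1.

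Ranks 7 to 12 among the upstream X regions went to hsp-3, ZC506.1, mdl-1, ZK470.4, epg-7 and sec-3. The gene hsp-3 encodes an endoplasmic reticulum chaperone, and its summit, at 7 bp, was the closest to a 5' end among the IDR peaks described here. Its pooled signal was 59.3 (rank 172), with 34.2 in replicate 1 (rank 47) and 26.9 in replicate 2 (rank 741). ZC506.1, a mannosidase gene, had a pooled signal of 57.8 at 206 bp and ranks of 351 and 189 in replicates 1 and 2. The gene mdl-1, for a Mad-like transcription factor, had 57.5 at 48 bp and ranks of 184 and 326. ZK470.4, for an ABC transporter ATP-binding protein, had 56.9 at 49 bp, the only one of the 35 with its summit in an intron.

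The ZK470.4 region rested on 1 replicate, with a signal of 51.5 in replicate 2 and of 5.64, at rank 6530, in replicate 1. The gene epg-7, for a scaffold protein of autophagy, had a pooled signal of 56.6 at 191 bp and ranks of 99 and 240. The gene sec-3, for a subunit of the exocyst that tethers secretory vesicles, had 55.3 at 175 bp and ranks of 544 and 253. Both of these were in the leading set of each replicate.

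The other IDR peaks are given by the role of their genes, an order of description chosen after the values had been seen, with no count or test behind it. A single peak at 768080 to 768449 (signal 39.3) served a diverging pair, 196 bp upstream of trap-2, a translocon-associated protein gene, and 331 bp upstream of ile-2, a lectin gene of transport from the endoplasmic reticulum. The mannosidase gene mans-3 had signal 40.2 at 155 bp, with ranks of 389 and 2087. The clathrin adaptor gene dpy-23 had signal 50.046 at 278 bp, with ranks of 203 and 585. The proton pump gene vha-12 had signal 41.5 at 282 bp, with ranks of 3757 and 406.

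Several of the other peaks lay upstream of genes for mitochondrial proteins. The ATP synthase gene asb-2 had signal 43.4 at 293 bp and ranks of 680 and 540. The succinate-CoA ligase gene sucl-1 had 46.6 at 338 bp and ranks of 302 and 755. The succinate dehydrogenase gene sdha-1 had 41.8 at 260 bp and ranks of 1058 and 465. Its summit lay in a non-coding gene, near the starts of D2021.5 (58 bp) and of D2021.6, a snoRNA gene (77 bp). F17E5.2, for a mitochondrial carrier protein, had signal 40.9 at 255 bp.

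Peaks upstream of regulatory and translation genes came next. The nuclear hormone receptor genes nhr-1 and nhr-32 had signals of 48.4 at 336 bp and 37.6 at 252 bp. The ranks of nhr-1 were 556 and 426, while those of nhr-32 were 10578 and 323, the widest gap of the 35. The receptor guanylate cyclase gene gcy-11 had signal 47.0 at 434 bp and also ranked far apart, at 8566 and 239. The translation elongation factor gene eef-1A.2 had 46.1 at 322 bp and went the other way, with ranks of 201 and 5114. The salt-inducible kinase gene kin-29 had 40.6 at 204 bp and ranks of 2670 and 572.

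The other IDR peaks lay upstream of K02A6.3 (signal 49.9), C18B12.4 (41.5), bca-1 (41.0), sym-4 (40.8), twf-2 (37.2), eor-2 (37.2) and M03F4.6 (36.2), and of 3 pairs of genes. The pairs were glit-1 with dnj-14 (50.3), a neuroligin-like gene and a DnaJ chaperone gene, C27C12.4 with C27C12.1 (41.7), and dhs-25 with D1005.10 (36.8). The threshold of the IDR list fell among close values. Just below M03F4.6 came nhr-35 at 35.4, pkhm-2 at 34.4, W05H7.1 at 34.3, C14A11.9 at 34.2 and uggt-1, a gene of glycoprotein folding, at 34.1.

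**Figure D1:**
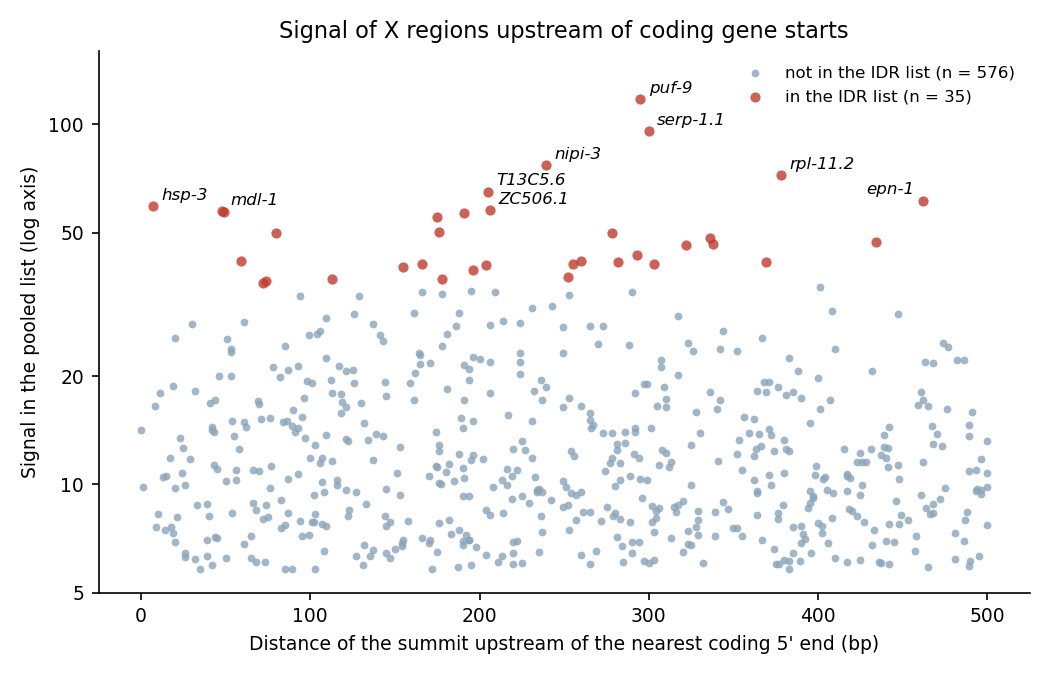
Each point is 1 of the 611 upstream X regions, placed by the distance of its summit upstream of the nearest coding 5' end (bp) and its pooled signal (log axis), with the 35 IDR peaks in red and the other 576 in blue. The points of highest signal, those of puf-9, serp-1.1 and nipi-3, sit 295, 300 and 239 bp upstream, and most points lie near the median of 11.2.

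Upstream X regions were IDR peaks more often than other X regions were, and about as often as autosomal regions chosen by the same conditions. Of the 611, 35 were IDR peaks (5.73%, Wilson 95% interval 4.15 to 7.86), where the background was 2.35% of all pooled regions and 2.26% of X regions. Among the other 5235 X regions 97 were (1.85%), 3.88 percentage points fewer, with a 95% interval of the difference of 2.24 to 6.04. Within these, the 211 regions within 500 bp of a tRNA 5' end had a higher share than the upstream X regions. Of the 211, 21 were IDR peaks (9.95%, 6.60 to 14.7), and the 2 intervals overlap. Among 3336 autosomal regions chosen by the same conditions 197 were IDR peaks (5.91%). The difference, upstream X minus autosomal, was -0.177 points with an interval of -1.97 to 2.09. That interval includes 0. Intervals cover counting error over regions only, and no test over samples was possible with 2 replicates in 1 group.

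The same order of upstream and other X regions was found in each replicate's own list, where autosomal regions were not counted. In the replicate 1 list 570 regions met the conditions, and 31 of them (5.44%) were in its leading set, against 2.13% of its other X regions. In the replicate 2 list 611 regions met them, and 29 (4.75%) were in its leading set, against 1.83%.

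Most upstream X regions were weak. Their median signal was 11.2 (95% interval 10.5 to 11.9), with quartiles of 8.05 and 17.4, a minimum of 5.80 and a maximum of 118. The lowest signal of the whole pooled list was 5.79. The other X regions had a median of 9.26, and the autosomal regions chosen by the same conditions had 11.1. The 35 IDR peaks had a median of 46.6, beside 44.8 for the 97 IDR peaks elsewhere on X and 48.3 for the 197 autosomal ones. All IDR peaks were selected by the same lower limit of signal, which by itself brings such medians together.

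The share varied with position relative to the 5' end. On the downstream side, 341 X regions had their summit 1 to 500 bp past a 5' end, and 3 were IDR peaks (0.880%), which is 4.85 points below the upstream share (interval 2.55 to 7.06). Of the 4683 X regions over 500 bp from any coding 5' end, 73 were (1.56%), 4.17 points below (2.54 to 6.33). Within the upstream window, the share was 6.25% at 0 to 99 bp (7 of 112), 5.76% at 100 to 199 bp (8 of 139), 8.46% at 200 to 299 bp (11 of 130), 5.69% at 300 to 399 bp (7 of 123) and 1.87% at 400 to 500 bp (2 of 107). The intervals of these 5 bins overlap, from 0.514 to 6.56 in the last and 4.79 to 14.5 in the bin at 200 to 299 bp. The median distance was 242 bp over all upstream X regions and 206 bp over the IDR peaks.

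**Figure D2:**
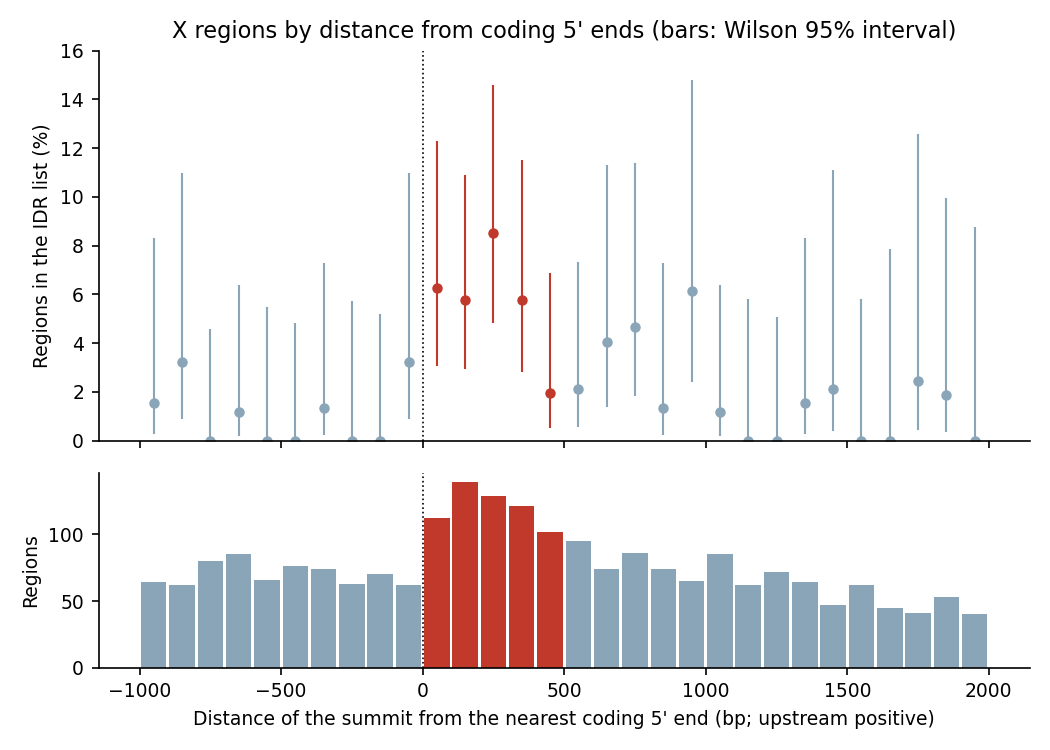
The share of X regions in the IDR list (percent, with Wilson 95% intervals as bars) is plotted in the upper panel, and the number of regions in the lower one, against the distance of the summit from the nearest coding 5' end in bins of 100 bp, with the upstream window of 500 bp in red. Counted by the nearest 5' end on either side, the upstream bin at 200 to 299 bp reaches 8.53% (11 of 129), the downstream bins to 1000 bp lie between 0 and 3.23%, and the bin at 900 to 999 bp upstream stands at 6.15% (4 of 65) with an interval of 2.42 to 14.8.

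At the 500 bp limit, 4 regions lay just inside, those of adm-2, C11H1.7, ergi-3 and F13C5.1, all at 500 bp, with signals of 10.8, 7.71, 9.83 and 13.2. Those just outside were F48F7.3 at 502 bp, spat-3 at 503 bp and ist-1 at 503 bp, with signals of 6.16, 22.3 and 15.03. None of these 7 was an IDR peak.

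How far each replicate held the regions was asked through partners, meaning reciprocally nearest summits within 100 bp. A partner in replicate 1 was found for 266 upstream X regions (43.5%), where 36.5% of all pooled regions had one, and in replicate 2 for 451 (73.8%), where 67.5% did. Both replicates gave a partner for 187 (30.6%), against 20.4% of all pooled regions and 20.1% of X regions. The share was 18.9% among the other X regions, a difference of 11.8 points (8.07 to 15.7), and 30.4% among the autosomal regions. A partner was found in replicate 1 alone for 79, in replicate 2 alone for 264, and in neither for 81.

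All 35 IDR peaks had partners in both replicates, with summits a median of 18 bp away in replicate 1 and 5 bp away in replicate 2. Among all IDR peaks 84.2% had partners in both, among those elsewhere on X 83.5% and among the autosomal ones upstream of coding genes 89.3%. The ranks of the 35 ran from 29 to 10578 in replicate 1 (median 662) and from 39 to 5114 in replicate 2 (median 451). Of the 35, 14 were in the leading sets of both replicates, 5 in that of replicate 1 alone, 11 in that of replicate 2 alone and 5 in neither. That put 54.3% of them in the leading set of replicate 1 and 71.4% in that of replicate 2, near the 51.6% and 74.1% of all IDR peaks, and 34.4% of all IDR peaks were in both. Over all pooled regions the shares were 2.04%, 2.24% and 0.817%. The pooled list includes the reads of each replicate, so these shares are not independent of the IDR list.

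**Figure D3:**
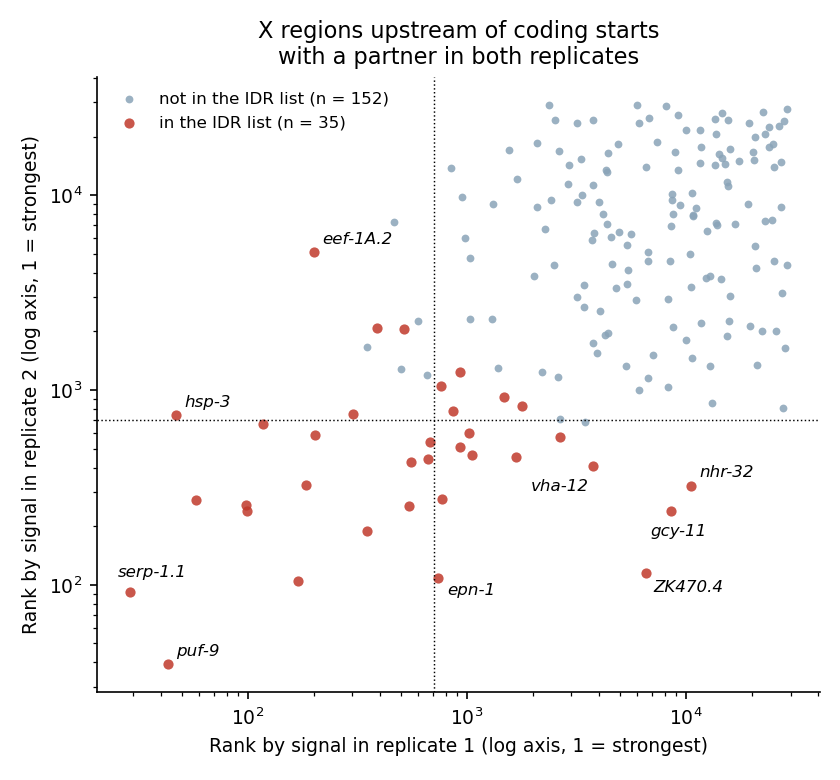
Each point is an upstream X region with partners in both replicates, placed by its rank in the replicate 1 list and in the replicate 2 list (log axes, rank 1 strongest), with the 35 IDR peaks in red, the other 152 in blue and dotted lines at the limit of each leading set. The region of puf-9 (ranks 43 and 39) sits at the corner of the strongest ranks, while nhr-32 (10578 and 323) and eef-1A.2 (201 and 5114) lie far from the diagonal.

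Over the 187 regions with partners in both, the log2 signals of the replicates had a Pearson r of 0.537. It was 0.506 over 987 other X regions and 0.589 over 1014 autosomal ones. Within the 35 IDR peaks it was 0.125, and within the other 152 upstream X regions with both partners it was 0.195. These 2 groups are split by pooled signal, which includes the reads of each replicate, and such a split by itself lowers r. All of these r values are descriptions over regions, which share libraries and are not independent replicates.

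The 611 regions served 576 of the 2731 protein-coding genes on X (21.1%), and 39 genes (1.43%) had an IDR peak. A region lay upstream of 1 gene in 582 cases and of 2 genes in 29, of which 19 were diverging pairs. Of the 29, 4 were IDR peaks (13.8%, 5.50 to 30.6), and all 4 were at diverging pairs, against 31 of 582 (5.33%, 3.78 to 7.46). The intervals overlap. In turn, 64 genes had 2 regions and 512 had 1. At ZK470.4 the second region lay at 249 bp with signal 23.1, and at K02A6.3 it lay at 281 bp with signal 7.15, beside the IDR peak at 80 bp.

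Gene families of the X chromosome were then counted by role, each beside the background of 21.1% of X genes with an upstream region and 1.43% with an IDR peak. Among 23 nuclear hormone receptor genes, ligand-dependent transcription factors, 12 had a region (52.2%, 33.0 to 70.8) and 2 had an IDR peak. Their leading members were nhr-1, nhr-32, nhr-35 and nhr-25 (signal 23.7 at 53 bp). Among 24 homeobox genes, 4 had a region (16.7%, 6.68 to 35.9) and none had an IDR peak, and the highest signal was 9.99 at dve-1. A list of 35 other transcription factor genes was built from gene name classes and did not hold every such gene, mdl-1 and mxl-3 among those left out. Within it 7 had a region, led by atf-6 (31.3), of the endoplasmic reticulum stress response, and the developmental timing gene lin-14 (30.004), and none of the 7 was an IDR peak.

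Genes of translation and protein folding had regions in most cases, from small lists. Of 5 ribosomal protein and translation factor genes, 4 had a region and 2 an IDR peak. Besides rpl-11.2 and eef-1A.2, these were the cap-binding protein genes ife-2 (signal 22.3) and ife-4 (14.4). Of 5 chaperone genes, 3 had a region and 2 an IDR peak, hsp-3 and dnj-14. The list of 23 vacuolar ATPase and membrane traffic genes was also built from name classes and left out epn-1, dpy-23 and ile-2, which had IDR peaks. Within it 9 had a region (39.1%, 22.2 to 59.2), with IDR peaks at sec-3 and vha-12. The list of 20 detoxification genes held name classes that include such enzymes, and not every gene in it need act in detoxification. Within it 8 had a region (interval 21.9% to 61.3%), with an IDR peak at dhs-25.

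The lists of genes used mainly in neurons differed. Of 36 neuropeptide and insulin genes 2 had a region (5.56%, 1.54 to 18.1), with signals of 9.11 at ins-9 and 8.85 at nlp-67. Of 90 ion channel, receptor and mec genes 10 had one (11.1%, 6.15 to 19.3), led by the glutamate receptor gene glr-6 (21.9), and of 28 chemoreceptor genes 2 had one (7.14%, 1.98 to 22.6). Of 13 synaptic and axon genes 3 had one (23.1%, 8.18 to 50.3). The intervals of the last 2 include the background. None of these 4 lists held an IDR peak. They too were built from names and name classes. The receptor guanylate cyclase gene gcy-11 and the neuroligin-like gene glit-1, which had IDR peaks, were left out of them. Of 29 cuticle collagen genes on a list built from name classes, 4 had a region (13.8%, 5.50 to 30.6), the strongest at col-168 (15.3). That list left out dpy-3, a cuticle collagen gene with a region of signal 15.4 at 95 bp. Of 21 intestine and lipid genes, chosen likewise, 1 had one (4.76%, 0.846 to 22.7), lbp-3, a fatty acid binding protein gene, at 5.92. Genes left out there include acl-1 (signal 26.7) and hyl-2 (23.1), which encode lipid enzymes. Both intervals include the background.

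The remaining lists were small. Of 5 heterochronic genes, which time larval development, 3 had a region: puf-9, lin-14 and hbl-1 (signal 6.44). Of 6 genes of dosage compensation and the X signal, sex-1 had a region (signal 17.4 at 253 bp). Of 15 muscle genes 4 had a region (interval 10.9% to 52.0%), of 18 chromatin genes 3 (5.84% to 39.2%) and of 18 G protein and Ras family genes 2 (3.10% to 32.8%). Of 11 kinase and phosphatase genes 5 had one (21.3% to 72.0%), and of 8 RNA-binding and splicing genes 3 (13.7% to 69.4%). The kinase and phosphatase interval begins just above the background of 21.1%, and the others of these include it. IDR peaks among these were those of kin-29, sym-4 and puf-9, which stands in 2 lists. These lists too were built from names and name classes. Not every gene in them need have the named role, and sym-4 entered the RNA-binding and splicing list by its name class alone. Genes left out include hpk-1 (signal 15.8) and mbk-1 (16.4), which encode kinases, and pab-2 (33.7), which encodes an RNA-binding protein.

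**Figure D4:**
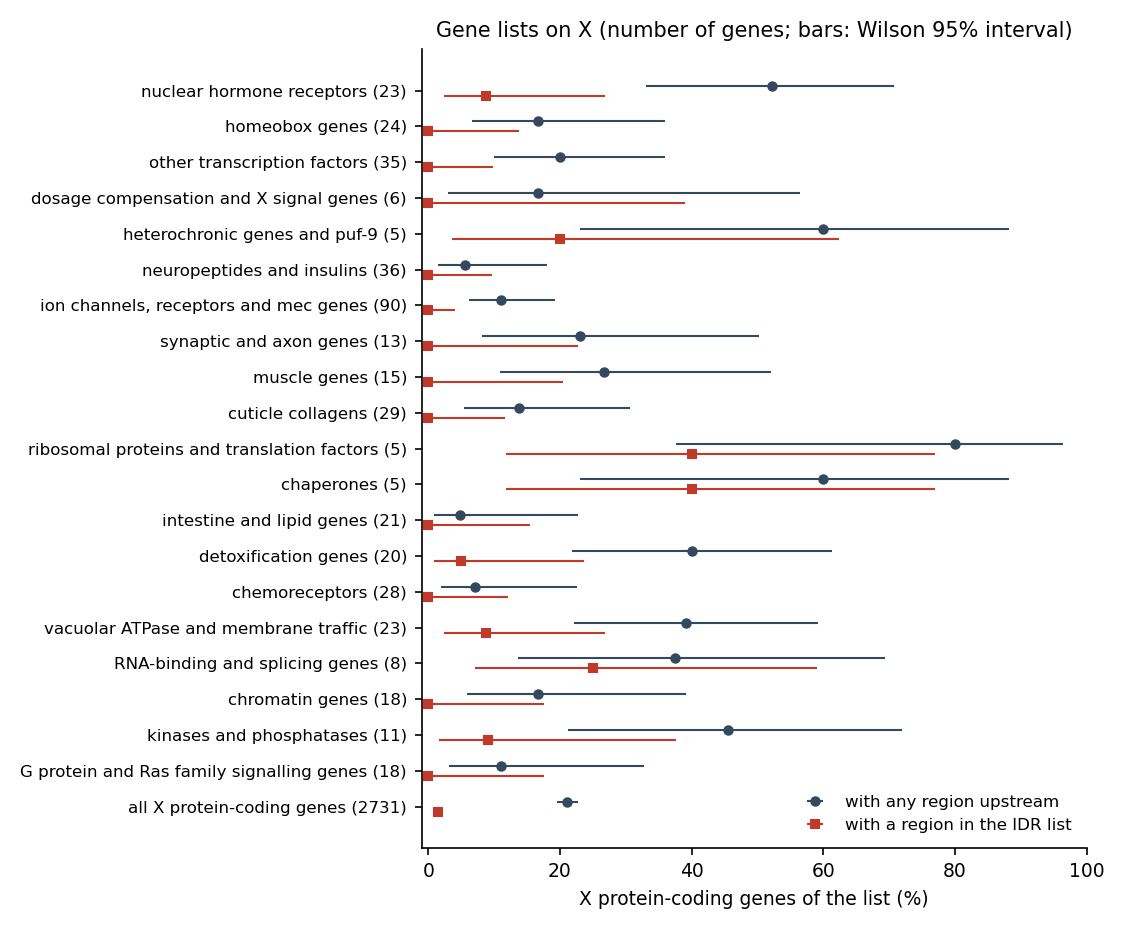
For each gene list on X, circles show the share of its genes with an upstream X region and squares the share with an IDR peak (percent, with Wilson 95% intervals as bars), above those of all X protein-coding genes, 21.1% and 1.43%. Nuclear hormone receptor genes lie at 52.2% by the first measure and neuropeptide and insulin genes at 5.56%, and lists of 5 or 6 genes have wide intervals.

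Most upstream X regions had their summit between genes. Intergenic summits made up 527 of 611 (86.3%), against 39.8% of the other X regions, a difference that the choice of upstream regions itself favours. Another 27 lay in non-coding genes, 24 in introns, 24 in 3' UTRs, 8 in coding exons and 1 in a 5' UTR. Of the 35 IDR peaks, 29 were intergenic, 5 lay in non-coding genes and 1 in an intron. For such regions, and for those close to a non-coding 5' end such as epn-1 (5 bp from T04C10.8) and C18B12.4 (11 bp from C18B12.9), the lists do not tell which gene the binding belongs to.

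Along the chromosome, windows of 3 Mb (the last one shorter) held between 70 and 117 regions. The share of coding genes with a region ranged from 18.9% to 23.0%. The window from 9 to 12 Mb held 117 regions but 1 IDR peak, that of ZC506.1, so that 0.204% of its 491 genes had one, against 1.43% to 2.15% in the other windows.

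The DNA at the summits of IDR peaks was richer in G and C. In the windows of 101 bases the median GC content was 52.5% for the 35 IDR peaks, 35.6% for the other 576 upstream X regions and 32.7% in windows 300 bp to either side of the IDR peaks. It was 46.5% for the IDR peaks elsewhere on X. The IDR peak with the lowest GC content, 33.7%, was that of gcy-11, and the highest, 64.4%, was that of epn-1.

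Classes of GC content, chosen after values had been seen, differed in their share of IDR peaks. Of 178 upstream X regions under 30% GC, 0 were IDR peaks (Wilson upper bound 2.11%), and of 195 at 30 to 40%, 1 was. Of 128 at 40 to 50%, 9 were (7.03%), and of 110 at 50% or more, 25 were (22.7%, 15.9 to 31.4). In that last class 8.73% of the other X regions were (35 of 401, 6.34 to 11.9) and 24.4% of the autosomal regions (84 of 344). The same class held 21 upstream X regions of the leading set of replicate 1 and 18 of that of replicate 2. Across regions, Pearson's r of GC content with the log2 of pooled signal was 0.456 over the 611 and 0.253 over the other X regions. The part of GC content in the IDR share, in binding or in the recovery of DNA, was not tested.

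**Figure D5:**
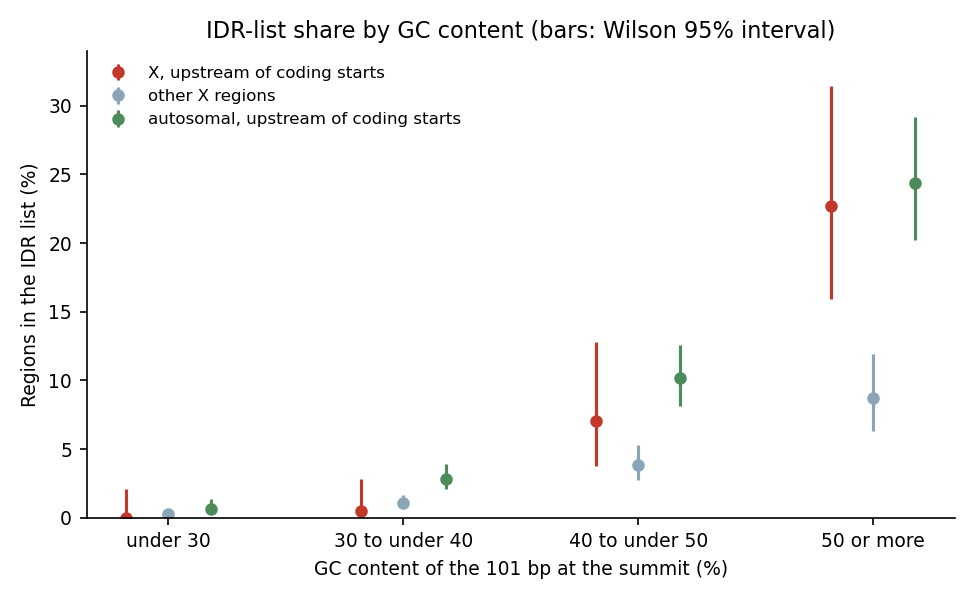
The share of regions in the IDR list (percent, with Wilson 95% intervals) is plotted by the GC content of the 101-base summit window, for upstream X regions, the other X regions and autosomal upstream regions. At 50% GC or more the shares were 22.7%, 8.73% and 24.4%, and under 30% GC the upstream X regions had none.

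Short words were counted on both strands of the windows. GACGCA, the leading word of earlier work on these data, was present in 7 of the 35 IDR peaks (20%, with an upper bound of 35.9), in 5.03% of the other upstream X regions and in 7.22% of the IDR peaks elsewhere on X. Because the word was taken from these same data, its shares are a description and not independent support. The shares in reference windows were 2.60% at the 5' ends of all X coding genes, 3.08% at 200 bp upstream of them and 0 of 70 at the flanks of the IDR peaks. Its 5-base core GACGC was present in 14 of the 35, in 10.2% and 15.5% of the other 2 classes and in 7.51% of windows at X 5' ends. In windows of 50% GC or more, GACGC was present in 48.0% of the IDR peaks, 32.9% of the other upstream X regions and 26.3% of windows at X 5' ends, so the gap was smaller there. Among autosomal IDR peaks upstream of coding genes, of any GC content, the share with GACGC was 40.1%.

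Other words were counted in the same windows. CTGCGTC contains the whole reverse complement of GACGCA, so every window with it was also counted for GACGCA. It was present in 6 of the 35 (17.1%, 8.10 to 32.7) and 2.95% of the other upstream X regions, and in 0.769% of windows at X 5' ends. GAGAGA was present in 9 of 35 (25.7%, 14.2 to 42.1) and in 13.7% (11.1 to 16.8), with 7.07% at X 5' ends. TATAAA, the core promoter word, was present in 2 of 35 (5.71%, 1.58 to 18.6) and in 14.6% (11.9 to 17.7), with 15.2% at X 5' ends. CACGTG was present in 0 of 35 (Wilson upper bound 9.89%) and in 2.95%, with 1.21% at X 5' ends. With windows of 100 bp to either side the order turned, to 5 of 35 (14.3%, 6.26 to 29.4) and 5.38%, so no direction is given for this word. AGATAA was present in 2.86% and 8.16%, with 6.77% at X 5' ends.

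All 6 IDR peaks with CTGCGTC shared the longer word TCTGCGTCTCT, which was read off their own windows, so its count among them is fixed by that choice. It was present in 5 of the other 576 upstream X regions (0.868%), 1 of the 97 IDR peaks elsewhere on X, 11 of the 5138 further X regions (0.214%), 6 of 2731 windows at X 5' ends (0.220%) and 12 of the 197 autosomal IDR peaks upstream of coding genes (6.09%). The word TTACCGTA, picked after values had been seen, was present in the IDR peaks of serp-1.1, rpl-11.2 and glit-1, in 1 of the other 576 upstream X regions and in 6 of the 2731 windows. The 6 windows are shown so that the longer word can be read in place. They lay at chrX:6092081-6092181 (minus strand) for hsp-3, chrX:3099977-3100077 (minus strand) for sec-3, chrX:17513677-17513777 (plus strand) for nhr-1, chrX:4469423-4469523 (plus strand) for asb-2, chrX:14853977-14854077 (plus strand) for C27C12.4 and chrX:12393953-12394053 (plus strand) for F17E5.2. Capitals mark the word or its reverse complement.
hsp-3: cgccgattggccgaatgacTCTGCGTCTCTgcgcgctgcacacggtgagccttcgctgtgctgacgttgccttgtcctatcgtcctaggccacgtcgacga
sec-3: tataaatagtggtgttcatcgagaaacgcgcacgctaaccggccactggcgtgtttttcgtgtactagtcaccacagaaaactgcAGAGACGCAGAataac
nhr-1: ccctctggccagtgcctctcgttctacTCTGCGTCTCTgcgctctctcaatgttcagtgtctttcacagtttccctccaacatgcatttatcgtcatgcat
asb-2: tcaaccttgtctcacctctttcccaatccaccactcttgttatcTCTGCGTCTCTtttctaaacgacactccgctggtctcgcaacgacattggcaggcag
C27C12.4: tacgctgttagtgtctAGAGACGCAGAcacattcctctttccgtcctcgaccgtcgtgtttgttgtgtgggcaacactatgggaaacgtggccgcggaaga
F17E5.2: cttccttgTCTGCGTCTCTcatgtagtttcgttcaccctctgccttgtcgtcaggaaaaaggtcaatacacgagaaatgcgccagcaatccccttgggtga
The 6 genes encode an endoplasmic reticulum chaperone (hsp-3), an exocyst subunit (sec-3), a nuclear hormone receptor (nhr-1), an ATP synthase subunit (asb-2), an UNC93-like protein (C27C12.4) and a mitochondrial carrier (F17E5.2). The word stood in the orientation of the named gene in 4 windows and reversed in those of sec-3 and C27C12.4. The C27C12.4 window also serves C27C12.1 on the other strand, and the word stood in the orientation of that gene.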

How the data were processed

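ChIP-seq regions of 1 group of 2 replicates were used as narrowPeak lists in the ce11 build. Library fragments were 150 to 350 bp, per the labels. The authors called regions on each replicate and on both together against a control, per the inventory text deposited with the files. Not given in the sources used here were the aligner, the peak caller, the definition of signal and the read depth. Each region's signal is the authors' deposited enrichment value. The −log10 q-values deposited beside it reach a ceiling of 3.15 in the pooled list, so ranking used signal. The IDR list held 704 peaks, all of them the strongest of the pooled list. Signals were set across lists only in the correlation of the replicates' log2 signals, and were otherwise printed beside the ranks. The deposited summit offset was used as given.

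Gene 5' ends came from Ensembl release 115 (WBcel235, the ce11 assembly, 19985 protein-coding and 634 tRNA genes), with 1 5' end per gene, and sequence from the RefSeq genome of the same assembly. Coordinates are 1-based. Shares have Wilson 95% intervals and differences of shares Newcombe intervals, without continuity correction. Medians have 95% intervals from order statistics. No hypothesis test was run. The counting steps were tested on simulated data. Software was matplotlib 3.10.9, scipy 1.17.1, numpy 2.4.6 and pandas 2.3.3 under Python 3.11.15.

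The regions and the 20 gene lists were chosen with earlier results of these data known. Named were all IDR peaks, with full values for the 12 strongest, the 5 regions next below, the 3 nearest to 500 bp on either side (with 1 tied region inside, F13C5.1, added later), up to 4 genes per list by signal, and the 2 genes with a pair of regions of highest signal among the genes with most regions. The GC classes, the words GACGC and TTACCGTA, the longer word around CTGCGTC and the grouping by role were added after values had been seen. Alternatives were other distances, 5' ends, tRNA conditions, thresholds, partner rules and windows, and each replicate's list alone.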

Additional observations from a re-analysis of the deposited data

How the results depend on the processing

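The share of upstream X regions in the IDR list lay between 4.66% (815 regions, with every transcript's 5' end) and 6.09% (250 bp) under other distances, 5' ends and tRNA conditions. With either replicate left out, the leading set of the replicate kept took the place of the IDR list. That set held 4.75% to 5.44% of the regions that met the conditions in a single list (570 in replicate 1). The number of regions was 312 within 250 bp and 1025 within 1000 bp. Within 1000 bp the share with partners in both replicates was 25.8% and the median signal 10.4. Counting only the IDR peaks above the median signal of the IDR list gave 3.11%. Partners within 50 bp gave 32.1% in replicate 1, 66.0% in replicate 2 and 20.5% in both, and a reciprocal overlap of 50% gave 51.7%, 79.4% and 39%. Windows of 100 bp to either side of the summit held GACGCA in 10.3% of the regions, CTGCGTC in 6.38%, GAGAGA in 25.9%, TATAAA in 24.2%, CACGTG in 5.89% and AGATAA in 14.4%, and among the IDR peaks GAGAGA in 51.4% and CACGTG in 14.3%. No paired analysis was possible because there is 1 group. Depth, the control and alignments were not used here, so signal cannot be set against read counts, and 35 IDR peaks leave wide intervals.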

Other observations

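Some upstream X regions outside the IDR list were strong in 1 replicate, 10 of 576 in the leading set of replicate 1 (1.74%) and 3 in that of replicate 2 (0.521%). Over all pooled regions outside the IDR list the shares were 0.853% and 0.512%, so the second is at the background. The region of mxl-3, a Max-like transcription factor gene, ranked 185 in replicate 1, had no partner in replicate 2 and ranked 4467 in the pooled list (signal 17.1, 342 bp upstream). The region of gpd-2, a glyceraldehyde phosphate dehydrogenase gene, ranked 345 in replicate 1 and 15419 in the pooled list (signal 9.33, 153 bp), also with no partner in replicate 2. In the other direction, the region of C34D10.1 ranked 282 in replicate 2, had no partner in replicate 1 and ranked 829 in the pooled list (signal 33.5, 253 bp).

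Of the 81 upstream X regions with no partner in either replicate, the strongest was that of tps-1, a trehalose phosphate synthase gene, with a pooled signal of 22.1 (rank 2440) at 482 bp. Those of Y34B4A.7 (19.5 at 112 bp) and plpp-1.3 (18.1 at 385 bp) came next. These regions were chosen after their values were seen.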
